A study of Mus musculus with 3186 samples.

Results

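The genes of the Wnt pathway described here are 54 of the 19937 genes counted in single cells of the mouse brain vasculature, chosen by symbol: 19 Wnt ligands, 4 R-spondins, 10 frizzled receptors, 4 co-receptors or receptor partners (Lrp5, Lrp6, Tspan12 and Reck), 10 secreted modulators of the Sfrp and Dkk families with Wif1 and Notum, and 7 membrane modulators, mediators or target genes (Apcdd1, Axin2, Ctnnb1, Lef1, Nkd1, Tcf7 and Tnfrsf19). Wnts are secreted lipid-modified proteins that bind frizzled receptors, and with Lrp5 or Lrp6 they stabilise beta-catenin, the product of Ctnnb1, which acts with transcription factors such as Lef1 and Tcf7. In the brain this pathway is known for its part in vessel growth and the blood-brain barrier, through neural Wnt7a and Wnt7b read by endothelial Reck and Gpr124, and through Norrin read by Fzd4 and Tspan12. Secreted inhibitors bind the ligands (Sfrp proteins, Wif1), bind the co-receptors (Dkk1, Dkk2) or strip the lipid from Wnts (Notum), and R-spondins strengthen the response by sparing frizzled receptors from degradation.

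The cells came from adult C57BL/6 mice aged 12 to 15 weeks and were sorted by fluorescence into 384-well plates, with 1 full-length cDNA library per cell. Pdgfra-H2BGFP mice, in which nuclear GFP is made where Pdgfra is active, gave 257 cells on 2 plates. Cldn5(BAC)eGFP mice, in which a transgene of a tight junction gene marks endothelium, gave 1445 cells on 4 plates. Pdgfrb(BAC)eGFP/NG2dsRed mice, in which both transgenes mark mural cells, gave 1484 cells on 4 plates. The labels name no treatment and no other genotype, so the comparisons are between cell classes. The labels name no animal, each class is therefore 1 pool without replicates, and no test was possible. Levels are given as CPM, the counts of a gene per 1000000 reads of the pooled class, by plate where it held at least 10 cells of the class. Exact Poisson 95% intervals, given for the leading gene of a class, cover counting error only.

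Cells were grouped by clustering that left out every gene described here, and a cluster was named only from its markers. This gave 77 fibroblast-like cells, 1434 endothelial-like cells, 173 smooth muscle-like cells, 681 pericyte-like cells and 150 oligodendrocyte-like cells. In each of these 5 classes all 8 markers of the class reached 20 CPM. Another 628 cells (19.7%) stayed in unnamed sub-clusters, among them 41.0% of the Pdgfrb(BAC)eGFP/NG2dsRed cells. The median was 591393 reads per cell in fibroblast-like cells, 345177 in endothelial-like, 377082 in smooth muscle-like, 326655 in pericyte-like and 509438.5 in oligodendrocyte-like cells. The fibroblast-like pool was uneven: 51 cells on plate Pdgfra1 gave 89.1% of its reads and 26 cells on plate Pdgfra2 gave 10.9%. Wells with markers of another class at 10% or more of that class's median numbered 15 of the 77 fibroblast-like cells and 368 of the 681 pericyte-like cells. The ratios between classes were also computed without these wells, called mixed wells below. In the pericyte-like pool Esam alone had 1453 CPM of the 1644 CPM summed over the 8 endothelial markers. The endothelial-like sum was 13484 CPM. Which markers flagged each well was not tested, so the 368 pericyte-like wells cannot be read as a count of contaminated wells. The genes' positions below are those of GENCODE M21 on GRCm38, the assembly that mm10 names.

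Of the 54 genes, 33 reached 5 CPM in fibroblast-like cells, 18 in endothelial-like, 20 in smooth muscle-like, 19 in pericyte-like and 10 in oligodendrocyte-like cells. Fibroblast-like cells held the highest level of 20 genes, endothelial-like cells of 10, smooth muscle-like cells of 4, pericyte-like cells of 3 and oligodendrocyte-like cells of 1. The remaining 16 genes stayed under 5 CPM in each of the 5 classes. Without plate Pdgfra2 the oligodendrocyte-like count was 17. The median number of genes with a read per cell was 4173 in fibroblast-like, 2638.5 in endothelial-like and 2964 in smooth muscle-like cells. It was 2176 in pericyte-like and 3361 in oligodendrocyte-like cells. The counts of genes by class, here and by role below, were not made over all genes. They therefore have no share of all genes beside them, and the part of this general difference was not tested.

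**Figure D1:**
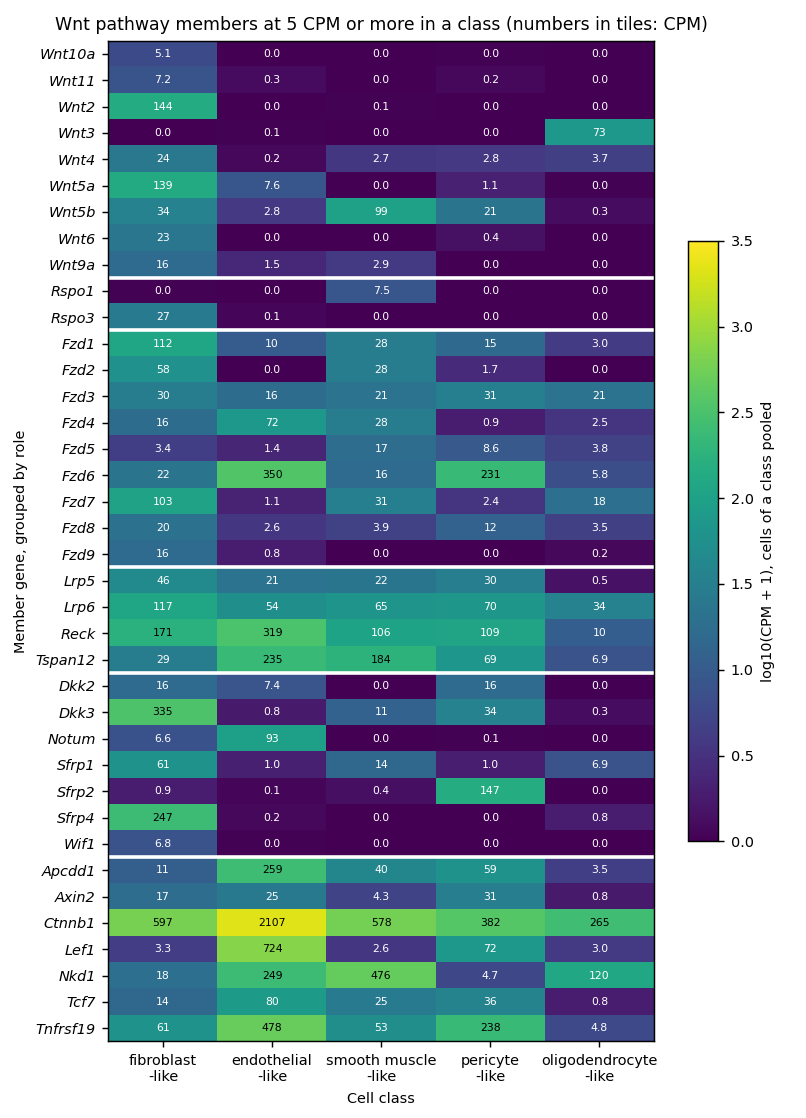
Pooled level of the 38 Wnt pathway genes that reached 5 CPM in at least 1 of 5 cell classes, as log10(CPM + 1) by colour and CPM by number, with white lines between roles. Wnt ligands and frizzled genes other than Fzd4 and Fzd6 lie mostly in the fibroblast-like column, and Lef1, Apcdd1, Notum and Tnfrsf19 in the endothelial-like column.

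Wnt ligands were found mainly in fibroblast-like cells, where 8 of the 19 reached 5 CPM, against 1 in each of the other 4 classes. Any Wnt ligand had a read in 88.3% of fibroblast-like cells, 11.6% of endothelial-like, 41.0% of smooth muscle-like, 12.5% of pericyte-like and 52.0% of oligodendrocyte-like cells. After each cell was thinned to 99000 reads these shares were 85.7%, 8.93%, 39.3%, 10.4% and 42.7% in the same order of classes. Levels were also summed per kilobase of exon, which allows genes to be added. The 19 ligands gave 120.4 CPM per kb in fibroblast-like cells, 3.26 in endothelial-like and 39.7 in smooth muscle-like cells. Pericyte-like cells had 10.3 and oligodendrocyte-like cells 25.1 CPM per kb. Wnt2, with 144 CPM over 2255 exon bases, made up the largest part of the fibroblast-like sum. All of its reads in that class came from plate Pdgfra1.

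Wnt5a (chr14:28504750-28527448), a ligand best known for signalling without beta-catenin, was the most widely read ligand of fibroblast-like cells. Its level was 139 and 133 CPM on the 2 plates, with reads in 67.5% of the cells (61.0% after thinning). Endothelial-like cells had 6.30, 8.17, 8.99 and 6.73 CPM on their 4 plates, smooth muscle-like cells had no read, and pericyte-like cells had at most 2.83 CPM on a plate. Every fibroblast-like plate lay above every plate of the other classes.

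Wnt2 (chr6:17988940-18030585), a ligand that acts through beta-catenin, had 144 CPM (95% interval 140.3 to 147) in fibroblast-like cells and a read in 29.9% of them, against 0.139% of endothelial-like cells. All of its 7362 reads in that class came from plate Pdgfra1, at 161 CPM. The 26 fibroblast-like cells of plate Pdgfra2 had none, which allows up to 0.536 CPM for them as a pool. Over the other 4 classes Wnt2 did not exceed 0.0626 CPM. The Wnt2 level of this class therefore rested on a single plate. With finer clusters (resolution 2 in place of 1), which left 48 fibroblast-like cells, Wnt2 was 3.90 CPM. Both Wnt2 and Wnt5a were read in 26.0% of fibroblast-like cells.

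The other ligands at 5 CPM or more in fibroblast-like cells were read in fewer of them. Wnt4 had 24.2 CPM, Wnt6 22.9 CPM and Wnt9a 15.7 CPM in fibroblast-like cells, from 17, 12 and 13 of the 77 cells and on both plates, and none exceeded 3.68 CPM in the other 4 classes. Wnt11 at 7.18 CPM and Wnt10a at 5.07 CPM rested on 5 and 3 cells with a read.

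Wnt5b (chr6:119432531-119544347), a close relative of Wnt5a, was highest in smooth muscle-like cells. These had 127, 114, 114 and 48.4 CPM on their 4 plates, and reads in 34.7% of cells, against 1.19% of endothelial-like cells. Fibroblast-like cells had 32.4 and 51.1 CPM on 2 plates, pericyte-like cells 32.1, 18.9, 14.2 and 22.4 CPM on 4, and endothelial-like cells 2.79 CPM as a pool. The smooth muscle-like pool had 99.3 CPM (95% interval 96.8 to 102). Its lowest plate overlapped the fibroblast-like plates, and all 4 lay above the pericyte-like plates.

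Wnt3 (chr11:103774150-103817957), a ligand that acts through beta-catenin, was read in oligodendrocyte-like cells. It had 73.5 CPM (95% interval 71.7 to 75.3), made up of 104 and 55.1 CPM on the 2 plates, with a read in 41.3% of cells and in 37.3% after thinning. The fibroblast-like cells of the same plates had no Wnt3 read in 77 cells, which allows a share of up to 3.90%. Wnt3 was thus lower in fibroblast-like than in oligodendrocyte-like cells by at least 1256-fold, with 3 counts taken as the limit for the pool. This bound covers counting error only. Of these 2 classes, each thus held a ligand that the other lacked or nearly lacked: Wnt5a had 0.0462 CPM in oligodendrocyte-like cells.

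**Figure D2:**
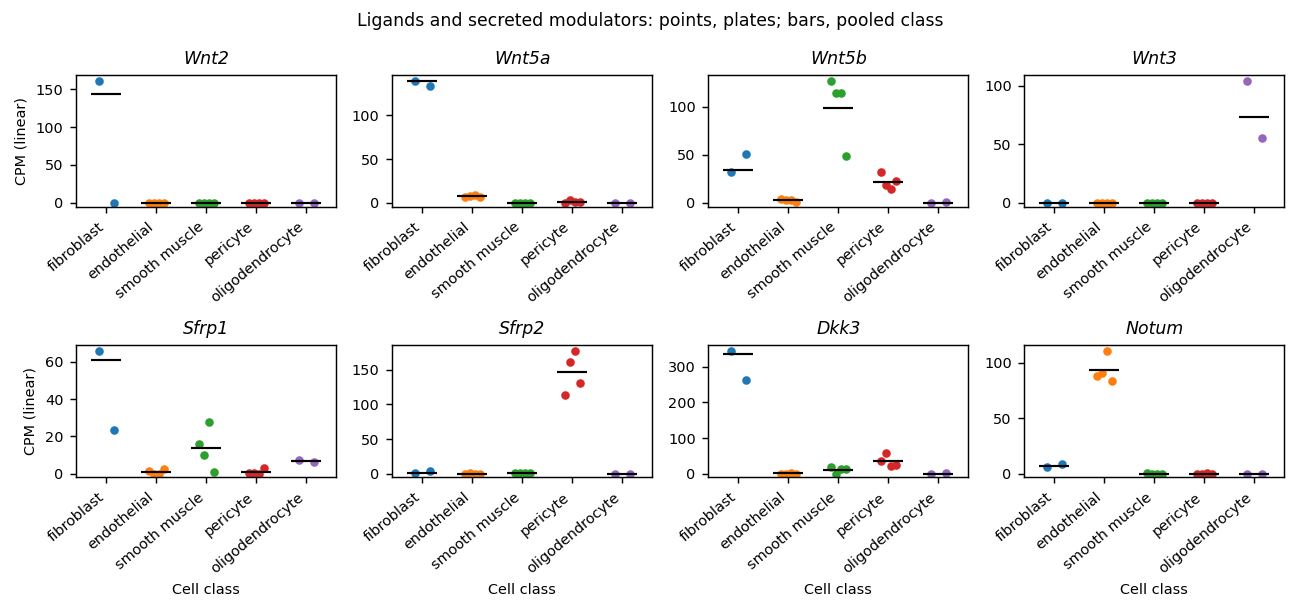
Level in CPM on a linear axis of 4 ligands and 4 secreted modulators in 5 cell classes, with a point for each plate with at least 10 cells of the class and a bar for the pooled class. Wnt2 is at 0 on 1 of 2 fibroblast-like plates, while Wnt5a has 139 and 133 CPM on them.

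The ligands known to act on brain endothelium from neural cells, Wnt7a and Wnt7b, had few reads in these 5 classes. Wnt7a did not exceed 1.08 CPM in any of them, and Wnt7b had 1 read in endothelial-like cells, 1 in pericyte-like cells and none in the others. The 10 ligands that stayed under 5 CPM in each class were Wnt1, Wnt2b, Wnt3a, Wnt7a, Wnt7b, Wnt8a, Wnt8b, Wnt9b, Wnt10b and Wnt16, and none of these exceeded 3.49 CPM. The 3 reporters do not select neurons or astrocytes, so ligands of those cells were not measured. Norrin (Ndp), which is no Wnt but binds Fzd4, had no read in fibroblast-like cells, 1.13 CPM in endothelial-like, 1.39 CPM in smooth muscle-like, 2.84 CPM in pericyte-like and 26.5 CPM in oligodendrocyte-like cells.

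R-spondins, the amplifiers of the response, reached 5 CPM in 2 classes. Rspo3, known as a vascular R-spondin, had 27.7 and 21.3 CPM on the fibroblast-like plates, with reads in 12 of 77 cells. It did not exceed 0.119 CPM in any of the other 4 classes. Rspo1 reached 7.51 CPM in smooth muscle-like cells from 3 cells alone. Rspo2 and Rspo4 stayed under 5 CPM everywhere.

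Among the frizzled receptors, Fzd6 was highest in endothelial-like and pericyte-like cells, and Fzd1, Fzd2 and Fzd7 in fibroblast-like and smooth muscle-like cells. A frizzled gene was read in 92.2% of fibroblast-like cells, 82.7% of endothelial-like, 69.9% of smooth muscle-like, 61.5% of pericyte-like and 36.7% of oligodendrocyte-like cells. Fzd6 (chr15:39006034-39038188), known for planar polarity, had 334, 369, 354 and 348 CPM on the 4 endothelial-like plates. Pericyte-like plates had 252, 227, 222 and 226 CPM and lay below all of these. Fibroblast-like cells had 21.6 CPM of Fzd6, smooth muscle-like cells 16.0 CPM and oligodendrocyte-like cells 5.85 CPM. Per kilobase of exon, the level of Fzd6 in endothelial-like cells was 72.7 CPM per kb and that of Fzd4, the Norrin receptor, 10.8 CPM per kb. In pericyte-like cells Fzd6 had 47.8 CPM per kb.

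Fzd4 (chr7:89404355-89413134) separated endothelium and smooth muscle from pericytes. Endothelial-like cells had 63.3, 56.6, 91.4 and 75.7 CPM on 4 plates and smooth muscle-like cells 43.9, 18.1, 29.5 and 22.6 CPM on 4 plates. Pericyte-like cells did not exceed 3.08 CPM on any plate. A Fzd4 read was found in 31.2% of endothelial-like, 18.5% of smooth muscle-like and 1.32% of pericyte-like cells (28.7%, 17.3% and 0.734% after thinning). Fibroblast-like cells had 18.3 CPM on plate Pdgfra1 and no read on plate Pdgfra2.

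Fibroblast-like cells had the highest level of Fzd7, with 99.3 and 134 CPM on 2 plates, and of Fzd2, with 55.6 and 79.7 CPM. Smooth muscle-like cells came next in both, at 31.3 CPM of Fzd7 and 28.3 CPM of Fzd2, while endothelial-like cells had 1.14 CPM of Fzd7 and 4 reads of Fzd2 in all. Fzd1 was 123 CPM on the first fibroblast-like plate and 18.9 CPM on the second, and the second lay within the range of the 4 smooth muscle-like plates, 8.40 to 49.7 CPM. Among the other frizzled genes, Fzd3 had 16.2 to 31.2 CPM over the 5 classes, Fzd5 was highest in smooth muscle-like cells at 16.7 CPM, and Fzd8 and Fzd9 were highest in fibroblast-like cells at 20.1 and 15.9 CPM. Fzd10 stayed under 5 CPM in every class.

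The co-receptors Lrp5 and Lrp6 were present in all 4 vascular classes. Lrp6 had 117 CPM in fibroblast-like cells, 53.7 CPM in endothelial-like, 64.6 CPM in smooth muscle-like, 70.2 CPM in pericyte-like and 34.2 CPM in oligodendrocyte-like cells. Lrp5 lay between 20.8 and 46.4 CPM in the 4 vascular classes and at 0.474 CPM in oligodendrocyte-like cells. No vascular class was thus without a co-receptor. Tspan12, the tetraspanin that strengthens Norrin signalling through Fzd4, was 240.4, 212, 242 and 250.5 CPM on the endothelial-like plates and 167, 236, 199 and 139 CPM on the smooth muscle-like plates, with a small overlap. Pericyte-like plates had 53.1, 51.6, 79.6 and 84.7 CPM and lay below both. Fzd4, Tspan12 and at least 1 of Lrp5 and Lrp6 were read together in 3.90% of fibroblast-like cells, 7.67% of endothelial-like, 4.62% of smooth muscle-like, and in none of the 681 pericyte-like and 150 oligodendrocyte-like cells. With 3 cells taken as the limit for a count of 0, this allows a share of up to 0.441% of pericyte-like and 2.00% of oligodendrocyte-like cells at this depth.

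Reck, the anchored protein that presents Wnt7 ligands to endothelium with Gpr124, was 250.4, 248, 421 and 365 CPM on the endothelial-like plates. It was also present in fibroblast-like cells at 182 and 85.7 CPM on 2 plates, in smooth muscle-like cells at 106 CPM and in pericyte-like cells at 109 CPM. Gpr124 lay within a narrower range in the vascular classes, at 103 CPM in fibroblast-like, 70.1 CPM in endothelial-like, 47.9 CPM in smooth muscle-like and 71.4 CPM in pericyte-like cells, against 2.87 CPM in oligodendrocyte-like cells.

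**Figure D3:**
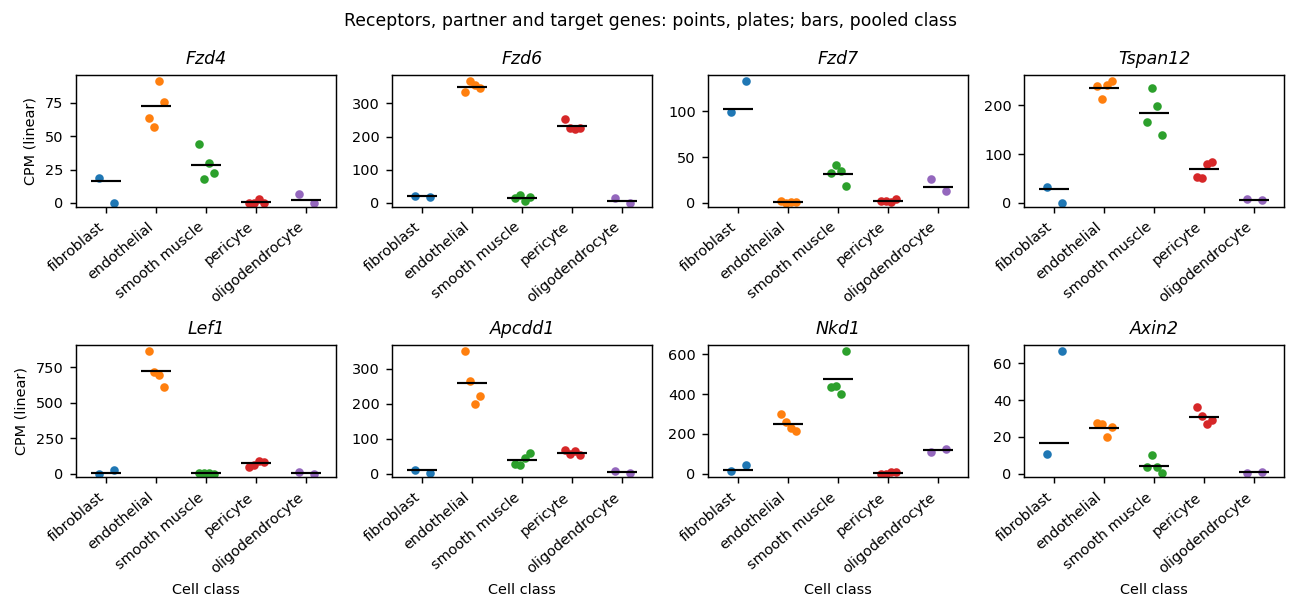
Level in CPM on a linear axis of 3 frizzled genes, the receptor partner Tspan12 and 4 genes of the response in 5 cell classes, with a point for each plate with at least 10 cells of the class and a bar for the pooled class. Lef1 and Apcdd1 are highest in endothelial-like cells, Nkd1 in smooth muscle-like cells, and the endothelial-like and pericyte-like plates overlap in Axin2.

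Of the 7 secreted modulators that reached 5 CPM in a class, 5 were highest in fibroblast-like, 1 in endothelial-like and 1 in pericyte-like cells. Notum (chr11:120653788-120661175), the enzyme that removes the lipid from Wnts, belonged to endothelial-like cells, with 87.9, 91.0, 110.1 and 83.2 CPM on 4 plates and reads in 38.8% of cells (35.7% after thinning), against 0.587% of pericyte-like cells. Fibroblast-like cells had 6.61 CPM, of which 98.8% came from 3 cells, and the smooth muscle-like, pericyte-like and oligodendrocyte-like pools each stayed at or under 0.0544 CPM. Sfrp2 (chr3:83766321-83774316), a secreted frizzled-related protein, belonged to pericyte-like cells, with 114, 161, 177 and 132 CPM on 4 plates and reads in 35.2% of cells (30.0% after thinning), against 0.628% of endothelial-like cells. The pericyte-like pool had 147 CPM (95% interval 145 to 149), and none of the other 4 classes exceeded 0.897 CPM.

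Fibroblast-like cells held 5 modulators at their highest level. Dkk3, a secreted protein related to the Dkk inhibitors, had 343 and 262 CPM on 2 plates, against 35.7, 59.1, 22.4 and 23.8 CPM on the pericyte-like plates and 0.79 CPM in the endothelial-like pool. Sfrp4 had 274 and 29.3 CPM on the 2 fibroblast-like plates, and 77.5% of its reads came from 3 cells. Sfrp1 had 65.6 and 23.6 CPM on the same plates, and the second lay within the 0.806 to 27.8 CPM of the smooth muscle-like plates. Dkk2 at 15.9 CPM and Wif1 at 6.81 CPM took 99.0% and 100% of their fibroblast-like reads from 3 cells, and pericyte-like cells came close in Dkk2, at 15.8 CPM. Dkk1, Dkk4 and Sfrp5 stayed under 5 CPM in every class.

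The genes that report or carry the beta-catenin response were highest in endothelial-like cells, with 5 of the 7 at their highest level there. Lef1, a DNA-binding partner of beta-catenin, had 863, 721, 697 and 615 CPM on the endothelial-like plates and 48.8, 59.8, 91.7 and 81.2 CPM on the pericyte-like plates. Fibroblast-like, smooth muscle-like and oligodendrocyte-like cells had 3.32, 2.55 and 2.97 CPM. The endothelial-like pool had 724 CPM (95% interval 722 to 727) of Lef1. A Lef1 read was found in 98.8% of endothelial-like cells, against 36.1% of pericyte-like and 11.0% of smooth muscle-like cells. Ctnnb1, beta-catenin itself and also a part of cell junctions, had 597 CPM in fibroblast-like cells, 2107 CPM in endothelial-like, 578 CPM in smooth muscle-like, 382 CPM in pericyte-like and 265 CPM in oligodendrocyte-like cells. Tcf7, a relative of Lef1, was 77.0, 74.0, 98.1 and 72.7 CPM on the endothelial-like plates, all above the 28.2 to 43.3 CPM of the pericyte-like plates.

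Apcdd1, a membrane inhibitor that is also a target of the pathway in endothelium, was 350.1, 266, 198 and 223 CPM on the endothelial-like plates and 67.7, 55.0, 64.0 and 52.7 CPM on the pericyte-like plates, which did not overlap. Lef1 and Apcdd1 were read together in 61.8% of endothelial-like cells. Smooth muscle-like cells had 39.8 CPM of Apcdd1, and 1 of the 8 endothelial markers at 20 CPM, Esam, at 760 CPM. The other 7 markers stood at 0.140% (Flt1) of their endothelial-like level or less in smooth muscle-like cells. Tnfrsf19 (also called Troy), a receptor known as a Wnt target, was 456, 461, 509 and 489 CPM on the endothelial-like plates and 283, 226, 229 and 222 CPM on the pericyte-like plates. The pericyte-like pool held 9.98% of the endothelial-like level of Lef1, 22.9% of that of Apcdd1 and 0.0583% of that of Notum. Of the 8 endothelial markers, 7 stood at 0.394% (Cdh5) to 3.88% (Flt1) of their endothelial-like level in this pool, and Esam at 58.8%. Without the mixed wells the log2 ratio of Lef1, endothelial-like over pericyte-like, was 3.27, against 3.31 with them. The log2 ratio of Apcdd1, endothelial-like over pericyte-like, was 2.00 without them, against 2.11. Esam made up most of the endothelial marker sum in the pericyte-like pool, and which markers flagged each well was not tested. These ratios therefore cannot tell the part of endothelial reads in the pericyte-like values.

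Axin2 and Nkd1, both feedback inhibitors that the pathway is known to induce, did not follow Lef1 over all 5 classes. Axin2 had 27.8, 26.9, 20.1 and 25.3 CPM on the endothelial-like plates and 36.4, 31.5, 26.8 and 29.1 CPM on the pericyte-like plates, which overlapped, and 4.27 CPM in smooth muscle-like cells. Nkd1 (chr8:88521354-88594884) was highest in smooth muscle-like cells, where Lef1 had 2.55 CPM. Nkd1 had 437, 439.7, 402 and 615 CPM on the 4 plates of that class, and reads in 89.6% of its cells. Endothelial-like plates had 301, 259, 232 and 213 CPM of Nkd1 and lay below all of these. Oligodendrocyte-like cells had 111 and 125 CPM on 2 plates, fibroblast-like cells 15.2 and 42.2 CPM, and pericyte-like plates at most 8.34 CPM. Like Lef1, Nkd1 was thus higher in endothelial-like than in pericyte-like cells.

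Upstream sequence was examined for 36 of the 54 genes, those with a window in the RefSeq promoter table (build GRCm38.p6). In the 250 bases before each start, 4 letter patterns bound by Lef1 and its relatives were searched on both strands. The first was CTTTGAA, the second was CTTTGAT, the third was CTTTGTA and the last was CTTTGTT. On the other strand this last pattern is AACAAAG, letters that Sox proteins bind as well. Of the 45 windows of these genes 7 held a match (15.6%), against 14.8% of all 32851 windows in the table. The share thus lay close to that of all promoters. Shown are the matching windows of 3 genes highest in endothelial-like cells and of Wnt5b, the ligand highest in smooth muscle-like cells. Each runs 5′ to 3′ on the gene's strand with the match in capitals, and ends at the base before the start. The Lef1 window is at chr3:131156044-131156293 on the plus strand (1 of 4 starts), the Reck window at chr4:43875280-43875529 on the plus strand (its only start), the Tnfrsf19 window at chr14:61037988-61038237 on the minus strand (1 of 2 starts) and the Wnt5b window at chr6:119449387-119449636 on the minus strand (1 of 3 starts).
Lef1: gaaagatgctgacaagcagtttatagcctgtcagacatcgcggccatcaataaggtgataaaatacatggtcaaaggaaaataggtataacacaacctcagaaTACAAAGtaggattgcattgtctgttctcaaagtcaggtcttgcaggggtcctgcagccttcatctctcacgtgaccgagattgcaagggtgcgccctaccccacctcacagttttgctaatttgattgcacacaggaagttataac
Reck: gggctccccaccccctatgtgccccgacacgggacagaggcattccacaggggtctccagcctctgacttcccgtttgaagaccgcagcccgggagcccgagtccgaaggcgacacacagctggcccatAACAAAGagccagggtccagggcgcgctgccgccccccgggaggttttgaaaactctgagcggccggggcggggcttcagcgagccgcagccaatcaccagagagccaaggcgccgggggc
Tnfrsf19: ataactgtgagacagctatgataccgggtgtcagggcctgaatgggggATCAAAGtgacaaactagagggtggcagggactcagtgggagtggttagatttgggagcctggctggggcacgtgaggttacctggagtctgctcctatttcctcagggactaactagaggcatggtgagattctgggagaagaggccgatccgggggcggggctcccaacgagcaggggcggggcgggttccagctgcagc
Wnt5b: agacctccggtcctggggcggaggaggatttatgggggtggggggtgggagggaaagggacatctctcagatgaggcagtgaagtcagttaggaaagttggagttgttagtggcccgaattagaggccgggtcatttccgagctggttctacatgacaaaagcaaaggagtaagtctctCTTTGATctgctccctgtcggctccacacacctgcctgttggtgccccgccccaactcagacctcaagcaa
The match lay 147 bases before the start in Lef1, 121 in Reck, 202 in Tnfrsf19 and 71 in Wnt5b. These are matches of letters and not measured binding sites.

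The classes were then set against each other gene by gene, on the log2(CPM + 1) scale, counting genes with 5 CPM in either class. The comparisons share pools (3 use the fibroblast-like and 3 the pericyte-like cells), so they are not independent of each other. The ratios were also computed with coarser clusters (resolution 0.5), finer clusters (resolution 2), classes from a marker gate, and the unnamed sub-clusters put in the class of their highest marker score, the last chosen after the data were seen. In endothelial-like over pericyte-like cells 23 genes counted, of which 11 were at least 2-fold higher and 5 at least 2-fold lower. Of all 10984 genes counted, 16.4% were that much higher and 19.3% that much lower, or 35.8% apart in all. The median log2 ratio was 0.60 for the 23 genes and -0.10 for all genes. The largest ratios were those of Notum (6.48), Nkd1 (5.47) and Fzd4 (5.26) at the upper end, and of Sfrp2 (-7.07), Dkk3 (-4.29) and Wnt5b (-2.56) at the lower end. For all 16 of these genes the 4 endothelial-like plates did not overlap the 4 pericyte-like plates. The share of all genes whose plates separate in this way was not counted, so this describes these genes only. The lines differ between these classes, so line and class cannot be told apart. The smallest called ratio, that of Tnfrsf19 (1.01), lay under 2-fold when plate EC5, EC6, Mural4, Mural5 or Mural6 was left out, at 0.97 to 0.99. It was 0.66 with coarser clusters, 0.74 with finer clusters, 0.69 with the marker gate and 0.69 with unnamed cells assigned. With finer clusters Fzd8 was -0.39, and Fzd5 was under 5 CPM in both classes, as was Fzd8.

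Smooth muscle-like over pericyte-like cells compared 2 mural classes of 1 line on the same 4 plates. Of 25 genes counted, 8 were at least 2-fold higher and 8 at least 2-fold lower, against 13.3% and 18.0% of all genes, or 31.3% apart in all. The median log2 ratio was -0.12 for these genes and -0.14 for all genes, both close to 0. The upper end held Nkd1 (6.40, 5.43 to 8.57 within plates), Fzd4 (3.93, 2.90 to 5.26) and Fzd2 (3.46, 1.06 to 4.74). The lower end held Sfrp2 (-6.72, -6.98 to -6.33), Lef1 (-4.37, -6.28 to -2.92) and Dkk2 (-4.05, -4.68 to -3.20). Fzd6 (-3.77), Axin2 (-2.58) and Tnfrsf19 (-2.13) were lower as well, and Fzd7 (3.24), Wnt5b (2.16) and Tspan12 (1.40) higher. Sfrp1 (2.89) and Fzd8 (-1.36) had the opposite sign on at least 1 plate, and Rspo1 (3.09) overlapped between the classes. The call for Dkk3 ended without plate Mural4, at -0.78, and that for Fzd8 without plate Mural5 or Mural6, at -0.97 and -0.98. Without the mixed wells Dkk3 was -0.86 and Fzd8 -0.97. Fzd8 was -0.013 with finer clusters, and Tspan12 was 0.96 with unnamed cells assigned.

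Fibroblast-like over oligodendrocyte-like cells compared 2 classes of the Pdgfra-H2BGFP line. Of 34 genes counted, 31 were at least 2-fold higher and 2, Wnt3 (-6.22) and Nkd1 (-2.65), at least 2-fold lower. The shares over all genes were 35.0% and 17.7%, or 52.8% apart in all. The median log2 ratio was 3.03 for these genes (3.36 with the 6 genes at 0 in 1 class set to their bound) and 0.36 for all genes. Dkk3 (8.00), Wnt2 (7.16) and Sfrp4 (7.09) stood at the upper end. Without plate Pdgfra1 the calls ended for 9 genes: Wnt2, Wnt10a, Wnt11, Fzd4, Fzd9, Lrp6, Tspan12, Apcdd1 and Dkk2. Tspan12 turned there to -2.20, against 1.92 with it. Without plate Pdgfra2 those of Ctnnb1, Fzd6 and Apcdd1 ended, at 0.67, 0.47 and 0.68. With finer clusters Wnt2 was 2.28 and under 5 CPM in both classes, Fzd7 was 0.78, Fzd4 0.49 and Lrp6 -0.066, and these calls ended. With the marker gate those of Wnt11 and Ctnnb1 ended, at 0.90 and 0.99.

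Fibroblast-like over pericyte-like cells gave 19 of 36 genes at least 2-fold higher and 8 at least 2-fold lower, against 20.7% and 16.7% of all genes, or 37.4% apart in all. The median log2 ratio was 2.15 for these genes and -0.08 for all genes. Sfrp4 and Wnt2, without a read in pericyte-like cells, were at least 18169-fold and at least 10558-fold higher with 3 counts per pool as the limit. These bounds, and that of Wnt6 below, cover counting error only, because reads are not independent molecules. Of the fibroblast-like reads, 3 cells held 77.5% for Sfrp4 and 71.7% for Wnt6. Wnt2 had no read in the fibroblast-like cells of plate Pdgfra2. Wnt5a followed with a log2 ratio of 6.04. Sfrp2 (-6.28), Lef1 (-4.09) and Fzd6 (-3.36) stood at the lower end. Fibroblast-like over endothelial-like cells gave 21 of 34 genes at least 2-fold higher and 10 at least 2-fold lower, against 24.5% and 17.6% of all genes (42.1% apart in all), with a median log2 ratio of 2.57 against 0.01. Sfrp4 (7.69), Dkk3 (7.55) and Wnt2 (7.15) were at the upper end, Wnt6 was at least 3705-fold higher with no read in endothelial-like cells, and Lef1 (-7.39), Apcdd1 (-4.49) and Fzd6 (-3.96) at the lower. Without plate Pdgfra1 the calls of Wnt2, Wnt10a, Wnt11, Fzd1 and Fzd9 ended in both comparisons, that of Fzd4 over pericyte-like cells, and those of Lrp6 and Dkk2 over endothelial-like cells. Dkk2 turned past 2-fold the other way there, to -1.79, with 1.43 CPM in fibroblast-like and 7.43 CPM in endothelial-like cells. The log2 ratio of Fzd1 without that plate was 0.34 over pericyte-like cells and 0.91 over endothelial-like cells. Ratios near 2-fold depended on other plates. That of Fzd5 over pericyte-like cells (-1.12) was -0.88 without plate Mural3 and -0.99 without plate Pdgfra2. That of Dkk2 over endothelial-like cells (1.01) was 0.84 to 0.99 without plate EC3, EC4 or EC6 and 0.49 without the mixed wells. With finer clusters Wnt2 was 2.29 over pericyte-like and 2.27 over endothelial-like cells, Fzd5 turned to 0.39 over pericyte-like cells, and Lrp6 and Lrp5 to -0.76 and -0.36 over endothelial-like cells. With coarser clusters the calls of Tspan12, Tcf7, Fzd5 and Tnfrsf19 over pericyte-like cells ended, at -0.23, -0.45, -0.77 and -0.89. The ratio of Nkd1 over pericyte-like cells (1.76) was 0.64 with the marker gate and 0.37 with unnamed cells assigned. In both comparisons the classes came from different lines. Summed markers of other classes in the fibroblast-like pool were 3159 CPM for pericytes (5 of 8 markers at 20 CPM), 136 CPM for endothelium (3 of 8), 697 CPM for smooth muscle (6 of 8), 696 CPM for oligodendrocytes (2 of 8) and 666 CPM for arachnoid or meningeal cells (4 of 5). The lists that separate endothelial types summed to 12318 CPM for arterial (4 of 8), 5941 CPM for venous (5 of 7) and 280 CPM for capillary cells (3 of 7) in this pool. Astrocyte markers summed to 398 CPM and microglia markers to 366 CPM, no other list exceeded 86.1 CPM, and the part of all these markers in the values was not tested.

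Within endothelium, Apcdd1 and Nkd1 were lower in arterial-like cells and Wnt5a was higher in venous-like cells, each against capillary-like cells. Arterial-like (236 cells), venous-like (294 cells) and capillary-like (440 cells) endothelial cells lay together on the same 4 plates. In arterial-like over capillary-like cells 2 of 18 genes were at least 2-fold higher, Dkk2 and Fzd3, and 2 at least 2-fold lower, Nkd1 and Apcdd1, against 7.39% and 4.87% of all genes, or 12.3% apart in all. Apcdd1 had 163, 90.7, 75.9 and 49.5 CPM on the 4 plates in arterial-like cells and 435, 308, 243 and 244 CPM in capillary-like cells, and the log2 ratio within plates was -2.28 to -1.41. Nkd1 had 123, 106, 22.3 and 62.9 CPM in arterial-like and 318, 291, 252 and 224 CPM in capillary-like cells, and the log2 ratio within plates was -3.44 to -1.36. The groups did not overlap for either gene. Lef1 and Axin2 stayed within 2-fold, with log2 ratios of -0.40 and 0.27. Without plate EC4 7 genes were at least 2-fold apart in place of 4, and the ratio of Fzd3 (1.23) was 0.86 without plate EC6. With coarser clusters, where 382 cells were arterial-like, the call of Nkd1 ended at -0.98, with 136 CPM in arterial-like and 269 CPM in capillary-like cells. Fzd3 was 0.89 with coarser and 0.93 with finer clusters.

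Dkk2 had 0, 30.4, 64.0 and 23.1 CPM in arterial-like cells and 8.65, 5.05, 0.0271 and 6.56 CPM in capillary-like cells, and the plates overlapped. It had no read in venous-like cells. Its arterial-like reads came from 12 of 236 cells. Fzd4 was 40.6, 46.8, 42.6 and 25.0 CPM in arterial-like, 87.7, 77.9, 160.2 and 114 CPM in venous-like and 62.9, 61.9, 77.3 and 105 CPM in capillary-like cells. The arterial-like plates lay below the others without overlap, though the log2 ratio to capillary-like cells was -0.85 and so within 2-fold. Notum was likewise lowest in arterial-like cells, at 35.7, 84.3, 71.7 and 37.8 CPM, 86.0 CPM in the venous-like pool and 106, 99.0, 129.7 and 91.5 CPM in capillary-like cells.

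In venous-like over capillary-like cells 1 of 19 genes was at least 2-fold higher and 1 at least 2-fold lower, against 5.00% and 4.22% of all genes, or 9.22% apart in all. The higher one was Wnt5a, with 27.4, 36.9, 33.3 and 29.7 CPM on the 4 plates in venous-like cells, 0, 0.246, 5.09 and 0.175 CPM in arterial-like and 0.024, 0, 0 and 5.20 CPM in capillary-like cells. A Wnt5a read was found in 17.0% of venous-like, 1.69% of arterial-like and 0.682% of capillary-like cells. All 4 venous-like plates lay above every other plate, and the log2 ratio was 2.31 to 5.24 within plates. The lower one was Dkk2, at 0 in venous-like cells and 5.20 CPM in capillary-like cells, near the limit of 5 CPM, and it no longer counted without plate EC3 or EC6. With coarser and finer clusters its ratio was -0.0073 and -0.030, with 0.00504 and 0.0213 CPM in capillary-like cells, and with the marker gate it was under 5 CPM as well. Of the 3714 Wnt5a reads in all endothelial-like cells, 3346 came from venous-like cells. Markers of another class were found in 1 of the 294 venous-like wells.

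**Figure D4:**
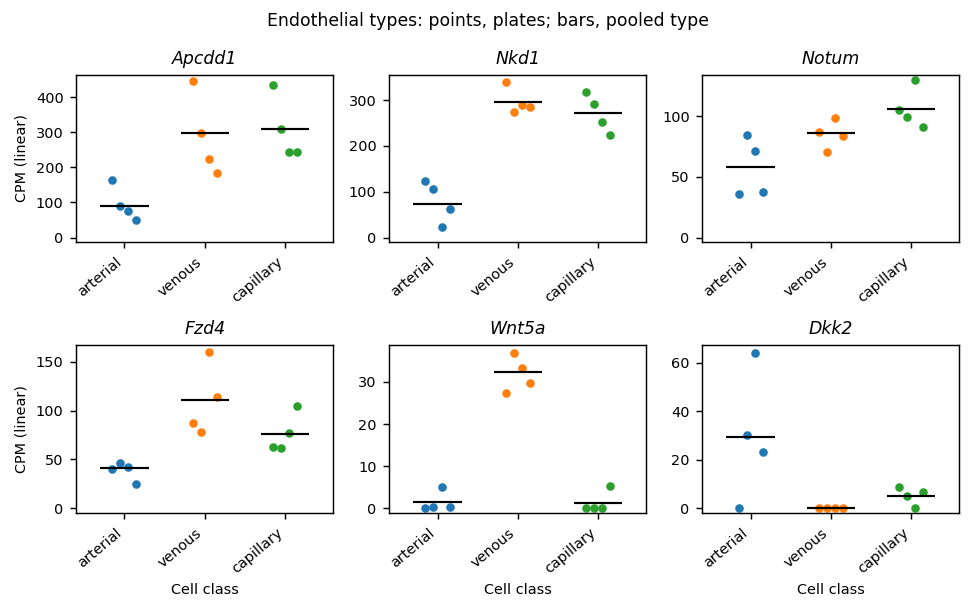
Level in CPM on a linear axis of 6 genes in arterial-like, venous-like and capillary-like endothelial cells, with a point for each of 4 plates and a bar for the pooled cells. Apcdd1 and Nkd1 are lowest in arterial-like cells on every plate, and Wnt5a is above 25 CPM in venous-like cells alone of the 3.

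The fibroblast-like cells were not alike in their ligands. Clustered again without the Wnt pathway genes, they formed 4 sub-clusters: 30 cells led by Alpl (28 of them on plate Pdgfra1), 20 led by Tspan13 (16 on plate Pdgfra2), 15 led by Ccl11 (7 and 8 on the 2 plates) and 12 led by Myoc (all on plate Pdgfra1). Their median depth was 1010300 reads per cell in the Alpl-led, 147986 in the Tspan13-led, 425434 in the Ccl11-led and 855227 in the Myoc-led cells. Summed fibroblast markers were 20856, 3546, 38924 and 64022 CPM in the same order, and summed arachnoid or meningeal markers 47.2, 988, 3073 and 486 CPM. Pericyte markers summed to 699, 466, 6884 and 8401 CPM and endothelial markers to 108, 505, 34.8 and 110 CPM in that order. Plate, depth and these markers moved with the sub-clusters, and their part was not tested. Values are given as a description.

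Wnt2 was read in 21 of the 30 Alpl-led cells, at 257 CPM. It had 8.51 CPM in the Myoc-led cells, which lay on the same plate, and no read in the Tspan13-led and Ccl11-led cells. Wnt4 showed the reverse, with no read in the Alpl-led cells, 107 CPM in the Tspan13-led, 55.7 CPM in the Ccl11-led and 28.5 CPM in the Myoc-led cells. Wnt6 had 1.80 CPM in the Alpl-led, 106 CPM in the Tspan13-led, 56.4 CPM in the Myoc-led cells and no read in the Ccl11-led cells. The 16 Tspan13-led cells on plate Pdgfra2 had 140 CPM of Wnt4 and 76.9 CPM of Wnt6. Wnt5a was shared more widely, at 156 CPM in the Alpl-led, 24.0 CPM in the Tspan13-led, 156 CPM in the Ccl11-led and 133 CPM in the Myoc-led cells.

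Sfrp4 was highest in the Myoc-led cells, at 1131 CPM from 6 of 12 cells, and did not exceed 23.9 CPM in the other 3 sub-clusters. Over all fibroblast-like cells 77.5% of its reads came from 3 cells. A read was also found in 9 of the 30 Alpl-led cells. Rspo3 was highest in the Tspan13-led cells at 120.5 CPM, from 5 of 20 cells. The 16 of these cells on plate Pdgfra2 had 46.4 CPM, so the pooled level rested largely on the 4 cells of plate Pdgfra1. Fzd7, Lrp6 and Dkk3 were highest in the Alpl-led cells, at 161, 185 and 423 CPM. Axin2 and Tnfrsf19 were highest in the Ccl11-led cells, at 99.2 and 245 CPM, and Tnfrsf19 had 37.7 CPM in the Alpl-led cells. Both genes were also present in pericyte-like cells, at 30.5 and 238 CPM. Pericyte markers summed to 6884 CPM in the Ccl11-led, 8401 CPM in the Myoc-led and 699 CPM in the Alpl-led cells. The Myoc-led cells had 1.14 CPM of Axin2 and 8.23 CPM of Tnfrsf19. The part of pericyte markers in these values was not tested. Axin2 was read in 12 of the 15 Ccl11-led cells and in 4 of the 30 Alpl-led cells, whose median depth was higher.

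**Figure D5:**
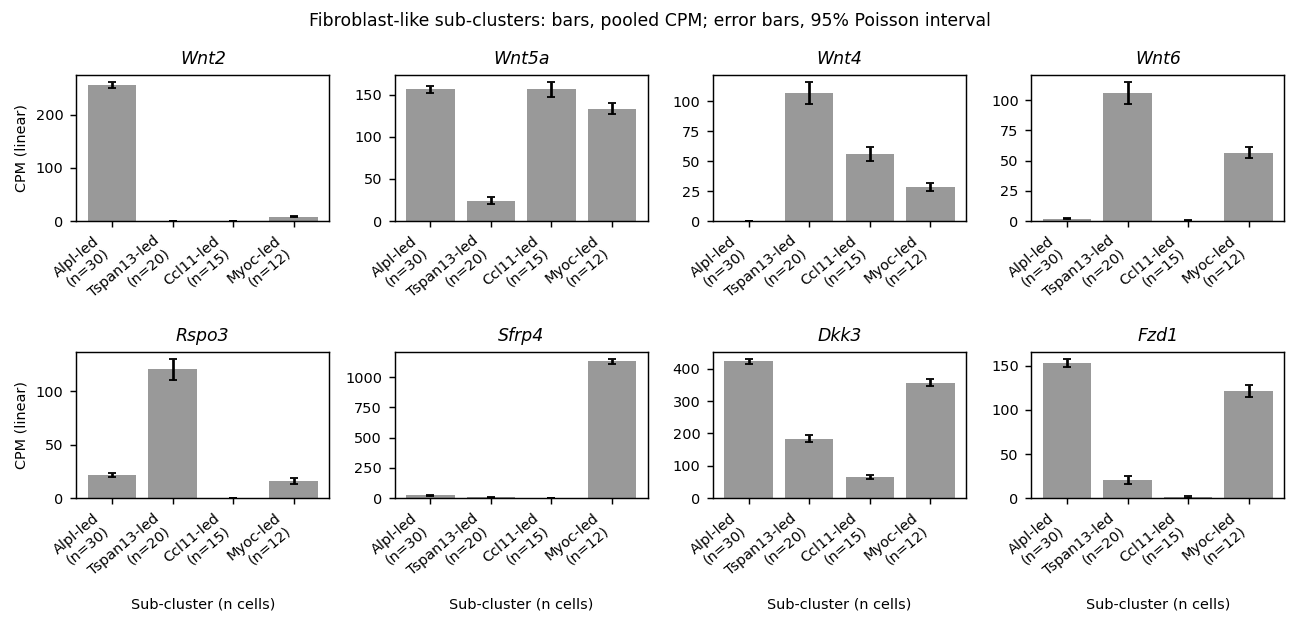
Pooled level in CPM on a linear axis of 8 genes in the 4 sub-clusters of fibroblast-like cells, with exact Poisson 95% intervals that cover counting error only. Wnt2 has 257 CPM in the Alpl-led and 8.51 CPM in the Myoc-led cells and no read in the others, Sfrp4 peaks in the Myoc-led cells, and Wnt4 and Wnt6 are highest in the Tspan13-led cells.

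Of 62 further genes of the pathway, such as planar polarity genes, the machinery of Wnt secretion and nuclear partners, 44 counted in endothelial-like over pericyte-like cells, with 12 at least 2-fold higher and 12 at least 2-fold lower, against 16.4% and 19.3% of all genes. The genes toward the upper end included Sox18 (8.98) and Sox7 (7.28), and the lower end held Gpc6 (-7.20), Ptk7 (-6.85), a co-receptor of planar polarity, and Ror1 (-5.57), a receptor for Wnt5a. Wls, the carrier that every Wnt needs for secretion, had 417 CPM in fibroblast-like cells, 232 CPM in endothelial-like, 454 CPM in smooth muscle-like, 1202 CPM in pericyte-like and 258 CPM in oligodendrocyte-like cells. It was thus highest in a class where 12.5% of cells had a Wnt ligand read. In smooth muscle-like over pericyte-like cells 7 of 41 were at least 2-fold higher and 14 lower (13.3% and 18.0% of all genes), with Trabd2b (4.41), an enzyme known to inactivate Wnts, at the upper end. In fibroblast-like over oligodendrocyte-like cells 24 of 51 were higher and 7 lower (35.0% and 17.7% of all genes). In fibroblast-like over pericyte-like cells the counts were 16 and 4 of 47 (20.7% and 16.7% of all genes), and in fibroblast-like over endothelial-like cells 18 and 10 of 50 (24.5% and 17.6%). Serpinf1 and Igfbp4, both reported as secreted Wnt inhibitors, were among the top 3 of these 3 comparisons, with log2 ratios of 10.45 and 7.89 over pericyte-like cells, and Igfbp4 had 3671 CPM in fibroblast-like cells. In arterial-like over capillary-like cells 8 of 42 were higher and 0 lower (7.39% and 4.87% of all genes). In venous-like over capillary-like cells 3 of 38 were higher and 2 lower, shares near the 5.00% and 4.22% of all genes.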

How the data were processed

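Single cells were sequenced with SMART-seq2, which has no molecular identifiers, so reads of a cell are not independent molecules and all intervals and limits cover counting error only. The deposited counts are whole reads per gene and cell. Reads were aligned with STAR 2.4.2a to mm10, per the submitters' processing notes, while no label or header names the counter, the annotation or the cell filters. The authors also deposited normalized values (a score, scaled to a near-equal sum in every cell and rounded), used as an alternative only. The 3186 cells had 99905 to 1606954 reads (median 350339). No 2 cells held identical counts.

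Cells were clustered by the Leiden method (leidenalg 0.10.2, resolution 1, 2000 variable genes, 30 components, 15 neighbours) in Python 3.11.15, without the genes described and the reporter genes. A cluster was named only where at least 50% of the markers of a type, and at least 3 of them, stood high in it. Its leading genes also had to not go against the name. A level of 20 CPM was not enough: in the Steap4-led cells 8 of 8 pericyte markers reached it, and 4 counted as high. The mural clusters led by Spp1, Ephx3, Steap4 and Gprasp2 had no pericyte marker among their 10 leading genes and stayed unnamed. In the Gprasp2-led cells 8 of 8 pericyte markers stood high. These conditions were chosen with the data already known. No doublet caller was run; wells with markers of another class were counted and left out as an alternative. The members of the gene family, the markers and the 62 further pathway genes were chosen with earlier results of these data known.

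Counts were summed per class and scaled to CPM, and ratios are log2(CPM + 1) differences among genes with at least 5 CPM in either class. A gene is described plate by plate where a class had at least 20 CPM of it and a read in at least 25% of cells, which 24 genes met, and other genes are given by class and range. Exact Poisson and Clopper-Pearson intervals at 95% and limits of 3 counts for a 0 were computed with scipy 1.17.1. The ratio calculation was also run on simulated counts with known changes in genes at 20 CPM or more. That simulation held no differences between plates, lines or animals. It therefore does not bear on calls near 5 CPM or on calls that rest on few cells. Levels per kilobase use GENCODE M21 exon lengths.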

Additional observations from a re-analysis of the deposited data

Results flagged for a closer look

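In 27 sets of 4 plate values of a gene in a class, 4 held a plate far from the other 3, where chance gives about 1 in 20. Wnt5b in smooth muscle-like cells was 48.4 CPM on plate Mural6, against 114 to 127 CPM on the other 3. Tcf7 in endothelial-like cells was 98.1 CPM on plate EC5, against 72.7 to 77.0 CPM. Plate Mural3 stood apart in pericyte-like cells for 2 genes, Tnfrsf19 at 283 CPM against 222 to 229 CPM, and Fzd6 at 252 CPM against 222 to 227 CPM.

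In cells outside the 5 classes, 4 genes had at least 5 CPM, a read in at least 10% of cells and at least 2-fold the highest level of those classes. The 22 oligodendrocyte progenitor-like cells had 43.7 CPM of Wnt7a, the neural ligand that the 5 classes had at 1.08 CPM or less, 78.3 CPM of Fzd3, against at most 31.2 CPM, and 6.96 CPM of Sfrp5, against at most 0.488 CPM. Of these 22 wells 16 held markers of another class, with summed endothelial markers at 6303 CPM (8 of 8 at 20 CPM) and astrocyte markers at 2886 CPM (5 of 7), and their part in these values was not tested. The 321 unnamed cells led by Spp1, from the mural line, had 319 CPM of Sfrp2, against 147 CPM in pericyte-like cells. Their summed pericyte markers were 67392 CPM, against 66371 CPM in pericyte-like cells.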

How the results depend on the processing

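Of 229 alternative values of the counts of genes, 216 lay within 1.5 times the reported count and 13 did not. With a limit of 20 CPM in place of 5, 21 genes counted in fibroblast-like cells and 5 in oligodendrocyte-like cells; the oligodendrocyte-like count was 18 at a limit of 1 CPM and 17 without plate Pdgfra2. Genes at least 2-fold apart between arterial-like and capillary-like cells numbered 8 with classes from a marker gate, 7 at 1 CPM and 7 without plate EC4, in place of 4. Between venous-like and capillary-like cells they numbered 6 with the marker gate and 6 at 1 CPM, and 1 by the mean of per-cell CPM, 1 with the authors' normalized values, 1 without plate EC3 and 1 at 20 CPM, in place of 2. The marker gate and finer clusters change which cells enter a class; the cause of the differences was not tested.

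Of 89 called ratios of named genes, 81 stayed at least 2-fold at clustering resolution 0.5, 81 at resolution 2 and 85 with the marker gate. With unnamed cells put in the class of their highest marker score (chosen after seeing the data) 85 did, and 86 at a pseudocount of 5 CPM. The number was 87 by the mean of per-cell CPM, 87 with the authors' normalized values and 87 without mixed wells. It was 88 with the total without the 50 highest genes of either class. The normalized values have a near-equal sum per cell, so they nearly repeat the mean of per-cell CPM. Filters of 1 and 20 CPM leave a ratio unchanged, and a pseudocount of 0.1 CPM can only widen a called one. All 89 were therefore bound to stay under these settings, which test nothing here. The direction was kept by 86 at resolution 2 and by 89 under the others, though a filter or a pseudocount cannot turn a direction. Of the 38 that could be taken within plates, 37 kept their direction and 33 stayed at least 2-fold by the median of within-plate ratios. At resolution 2, with 48 fibroblast-like cells left, the direction turned for 3 ratios. Lrp6 was -0.066 in fibroblast-like over oligodendrocyte-like cells and -0.76 over endothelial-like cells, and Lrp5 was -0.36 over endothelial-like cells. By the median of within-plate ratios, Tspan12 was -0.071 in fibroblast-like over oligodendrocyte-like cells. Without plate Pdgfra1 the ratio was -2.20 for Tspan12 and -0.017 for Apcdd1 over oligodendrocyte-like cells, -0.93 for Fzd4 over pericyte-like cells and -0.027 for Wnt2 over endothelial-like cells. The endothelial-like over pericyte-like ratio of Tcf7 (1.13) lay under 2-fold at resolutions 0.5 and 2, with the marker gate, without mixed wells and with unnamed cells assigned, at 0.90 to 1.00. Wnt10a in fibroblast-like cells was under 5 CPM at resolution 0.5, by the mean of per-cell CPM, with the authors' normalized values and without mixed wells. By the mean of per-cell CPM the ratios of Lrp5 and Lrp6, fibroblast-like over endothelial-like, were 0.77 and 0.73. No paired analysis was possible because the ratios between pools come from no test; the ratios within shared plates are values without one.

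With no animals named, the spread between mice is unknown, and plates lie within lines. Fibroblast-like values rest on 77 cells and mostly on 1 plate. Where 3 cells hold most reads of a gene, its pooled level describes those cells. A low share of cells with a read can reflect depth.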

Other observations

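Mural cells that stayed unnamed, all but 10 of the cells below coming from the Pdgfrb(BAC)eGFP/NG2dsRed line, differed from the pericyte-like pool in several of these genes. The 321 cells led by Spp1 had 432 CPM of Tnfrsf19, against 238 CPM in pericyte-like cells, 338 CPM of Fzd6, against 231 CPM, and 47.7 CPM of Axin2, against 30.5 CPM. The 142 cells led by Ephx3 had 225 CPM of Tspan12, against 69.0 CPM, and 12.6 CPM of Fzd10, a receptor under 5 CPM in the 5 named classes. The 55 cells led by Steap4 had 124 CPM of Dkk3, against 34.1 CPM, 385 CPM of Reck, against 109 CPM, and 40.8 CPM of Fzd4, against 0.911 CPM. Summed smooth muscle markers were 10832 CPM in the Ephx3-led cells, against 4958 CPM in pericyte-like cells, and summed pericyte markers 40321 CPM, against 66371 CPM. In the Steap4-led cells fibroblast markers were 2252 CPM (6 of 8 at 20 CPM), against 502 CPM (4 of 8) in pericyte-like cells, and pericyte markers 28214 CPM. The part of these markers was not tested. These genes were picked after their values were seen, and the values are a description.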
